A study of Oncorhynchus mykiss with 30 samples.

Results

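The probes described here had a lower signal in the gonad of trout from the lowest concentration of ethynylestradiol (EE2) on, and a signal at or below that level at the highest concentrations. They were 197 of the 60195 probes of the array. They were chosen on the log2 values that the authors deposited. The control mean had to be at least 8, the mean at 0.01 μgEE2/L at least 1 below it, and the means at 1 and 10 μgEE2/L no higher than the mean at 0.01 μgEE2/L. Of 59971 probes left after 1 separate design of the array was put aside, 472 met these criteria. They were ranked by the control mean minus the largest of the 4 exposed means, the first 200 were taken and 3 of these were left out by name. The mean at 0.1 μgEE2/L entered through the rank only. Every difference from the control, and those between 0.01 μgEE2/L and the higher concentrations, were thus used by the choice. The means compared between 0.1 μgEE2/L and 1 or 10 μgEE2/L entered it too. All these differences are given as a description without a test of the members. The choice did not use the tanks or the slides. It set no order between 10 and 1 μgEE2/L, though both means entered it.

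The signals are those of gonads from an all-male population of rainbow trout (Oncorhynchus mykiss) fry. The fry spent 76 days in water with EE2, at nominal concentrations of 0.01, 0.1, 1 or 10 μg/L, or with the solvent alone (control), and were 136 days old, counted from fertilisation, at the end. The measured concentrations were 0.08 ± 0.06, 1.62 ± 1.74 and 9.88 ± 5.06 μg/L (mean ± SD) for the 3 higher nominal values, and 0.01 μg/L lay under the detection limit of 0.02 μg/L. A group of 6 arrays came from 3 tanks, and each of the 30 single-color Agilent arrays measured a pool of 10 pairs of gonads, of which a tank gave 2. A pool can mix gonads of different morphology. The p-values below measure the spread between pools and take the pools as independent, while EE2 was given by tank. The fish of all groups were labelled male and the tissue testis. Earlier histology summarised in the paper found immature testes in all control fish, and ovotestes among the gonads at the lower concentrations. Unaltered testes were seen at no concentration above the lowest. At the highest concentrations most or all gonads had the features of an immature ovary. Differences from the control thus compare gonads of unlike morphology, and the part of the morphology in them was not tested. In bulk tissue, fewer cells of a type and less RNA per cell cannot be told apart.

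EE2 is a synthetic oestrogen. In fish, oestrogens given while the gonad differentiates can turn a genetic male into a fish with an ovotestis or an ovary, and the expression of genes of the testis is known to decline in such gonads. FOXL2 is a transcription factor of the somatic cells of the ovary and a marker of ovarian differentiation. Besides the design names used here, the array names 105 members by a TC name, 59 by a sequence read and 33 by a sequence database accession. None of these names was matched to a gene in the reference used, and 2 of the members carry a gene name here, from the study's tables. Both names come from homology to zebrafish. They belong to Bmp6, a secreted ligand of the TGF-beta family that acts through BMP receptors and SMAD proteins, and to Dnajc28, a member of the DnaJ (Hsp40) family of co-chaperones. Design names that begin with CUST all end in _PI425536763, which is left out below. Marker lists for the cell types of the gonad could not be applied, because of the 8 genes of the granulosa and ovary list only FOXL2 was matched to a probe, and for the other lists none was.

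A pair of arrays stood apart from the rest. The middle of the array was dimmer than its surroundings by 1.14 on the log2 scale on replicate 4 of the control and by 1.62 on replicate 1 at 0.1 μgEE2/L, against differences between -0.03 and 0.10 on the other 28 arrays. Replicate 4 of the control had 12 members over 4-fold from its group's median, and replicate 1 at 0.1 μgEE2/L had 9. Replicate 4 at 10 μgEE2/L had 8, without a dim middle, and the other arrays had 0 to 5. Without both arrays, the members' median differences given below were -1.42 in place of -1.44 between 0.01 μgEE2/L and the control, -1.56 in place of -1.42 between 0.1 and 0.01 μgEE2/L, and -0.15 in place of -0.24 between 1 and 0.1 μgEE2/L. The deposited table exchanges 3 pairs of columns relative to the scanner files, always within a group, and the labels of the scanner files were used.

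The members were lower in steps, with the largest steps at the 2 lowest concentrations. The choice required the step at 0.01 μgEE2/L. That step and the distance of the control from the exposed groups are thus a description. Per array, the median normalised signal of the 197 members (log2) had a lowest, median and highest value of 9.14, 10.03 and 10.22 in the control, 8.02, 8.26 and 8.58 at 0.01 μgEE2/L, 6.73, 6.95 and 7.74 at 0.1 μgEE2/L, 6.44, 6.68 and 6.81 at 1 μgEE2/L, and 6.20, 6.52 and 6.82 at 10 μgEE2/L. The arrays of the control, of 0.01 μgEE2/L and of 0.1 μgEE2/L did not overlap in this median, whereas those of the 3 higher concentrations overlapped. Quantile normalisation gives all arrays nearly the same median over all probes, 7.16. The median of the members lay above it in the control, which the minimum of 8 for the control mean brings about. At 1 and 10 μgEE2/L the median of the members lay below 7.16, while their upper quartile stayed above it on every array.

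**Figure D1:**
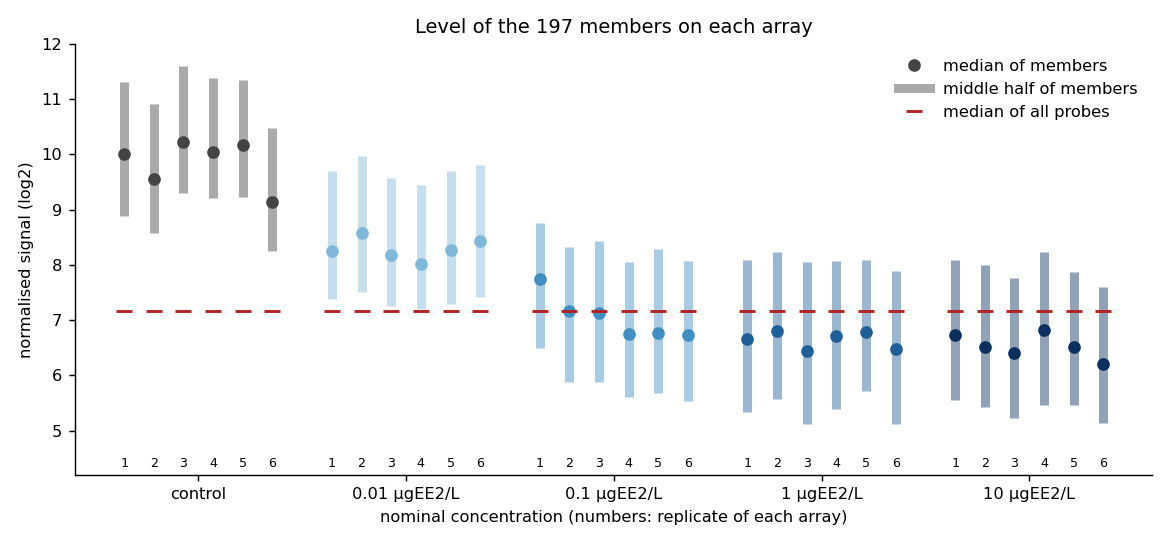
Normalised signal (log2) of the 197 members on each of the 30 arrays, grouped by nominal concentration from the control to 10 μgEE2/L. Points are medians, bars the range from the lower to the upper quartile of the members and dashes the median of all probes (7.16). The points lie between 9.14 and 10.22 in the control, between 8.02 and 8.58 at 0.01 μgEE2/L and between 6.20 and 6.82 at 10 μgEE2/L.

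Relative to the control, the median member stood at 36.7% at 0.01 μgEE2/L, 13.1% at 0.1, 11.1% at 1 and 9.96% at 10 μgEE2/L, or 2.72, 7.61, 8.99 and 10.0-fold lower. All 197 members were over 2-fold lower at each of the 4 concentrations, which the criteria and the rank bring with them. Over 8-fold lower were 2 members at 0.01 μgEE2/L, 90 at 0.1, 109 at 1 and 115 at 10 μgEE2/L, where 0.792% of all probes were. Over 16-fold lower were 0, 40, 55 and 64 members in the same order. In limma with Benjamini-Hochberg adjustment over all probes, 186 members were called lower at 0.01 μgEE2/L than in the control (5.09% of all probes were), 193 at 0.1 μgEE2/L (14.3% of all), 195 at 1 μgEE2/L (21.2%) and also 195 at 10 μgEE2/L (22.5%). The choice of the members fixed these counts and nothing is read from them. With each array scaled to its 75th percentile in place of quantile normalisation, the median of all probes was -0.28 at 1 μgEE2/L and -0.29 at 10 μgEE2/L against the control, and the members' medians were -3.26 and -3.37.

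Every array lay below every control for 161 members at 0.01 μgEE2/L (3.42% of all probes), 174 at 0.1 μgEE2/L (5.64% of all), 187 at 1 μgEE2/L (11.6%) and then 186 at 10 μgEE2/L (10.5%). All 6 controls gave a signal well above background for 194 members, and all 6 arrays at 0.01 μgEE2/L for 197. At the 3 higher concentrations this held for 164, 153 and 156 members, and 3, 7 and 6 members were well above background on none of the arrays. Some members thus left the measurable range at the higher concentrations. For those, a fold is given as a bound, with the mean of the controls against the mean over arrays of the higher of the member's own value and the lowest signal well above background.

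The probe of Bmp6 (TC95275) had its largest steps at the 2 lowest concentrations. The normalised signal (log2) of the controls lay between 8.73 and 9.77 (median 9.17), and the arrays at 0.01 μgEE2/L between 6.08 and 7.09 (median 6.28). At the 3 higher concentrations the medians were 4.70, 4.92 and 4.82, with ranges of 4.39 to 5.41, 4.09 to 5.18 and 4.16 to 5.83. The controls did not overlap with any exposed group, nor did the arrays at 0.01 μgEE2/L with those at the higher concentrations, among which the ligand showed no order. The means were 6.99, 22.0, 21.7 and 20.1-fold lower than in the control, from the lowest concentration to the highest. At 0.1 and 1 μgEE2/L the probe was well above background on 3 and 4 of 6 arrays, so that its level there is less precise.

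For the co-chaperone gene Dnajc28 (TC108315), the controls lay between 8.74 and 9.77 (median 9.07) and the arrays at 0.01 μgEE2/L between 5.81 and 6.86 (median 6.70). The arrays at 0.1 μgEE2/L ranged from 4.17 to 5.38, those at 1 μgEE2/L from 4.57 to 5.27 and those at 10 μgEE2/L from 4.74 to 5.42, with medians of 4.52, 4.90 and 5.01. The means were 6.36, 23.5, 19.4 and 18.5-fold lower than in the control, and at 0.1 μgEE2/L the probe was well above background on 4 of 6 arrays. For both named genes, over 100% of the difference between 10 μgEE2/L and the control was reached at 0.1 μgEE2/L, with 103% for Bmp6 and 108% for Dnajc28.

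**Figure D2:**
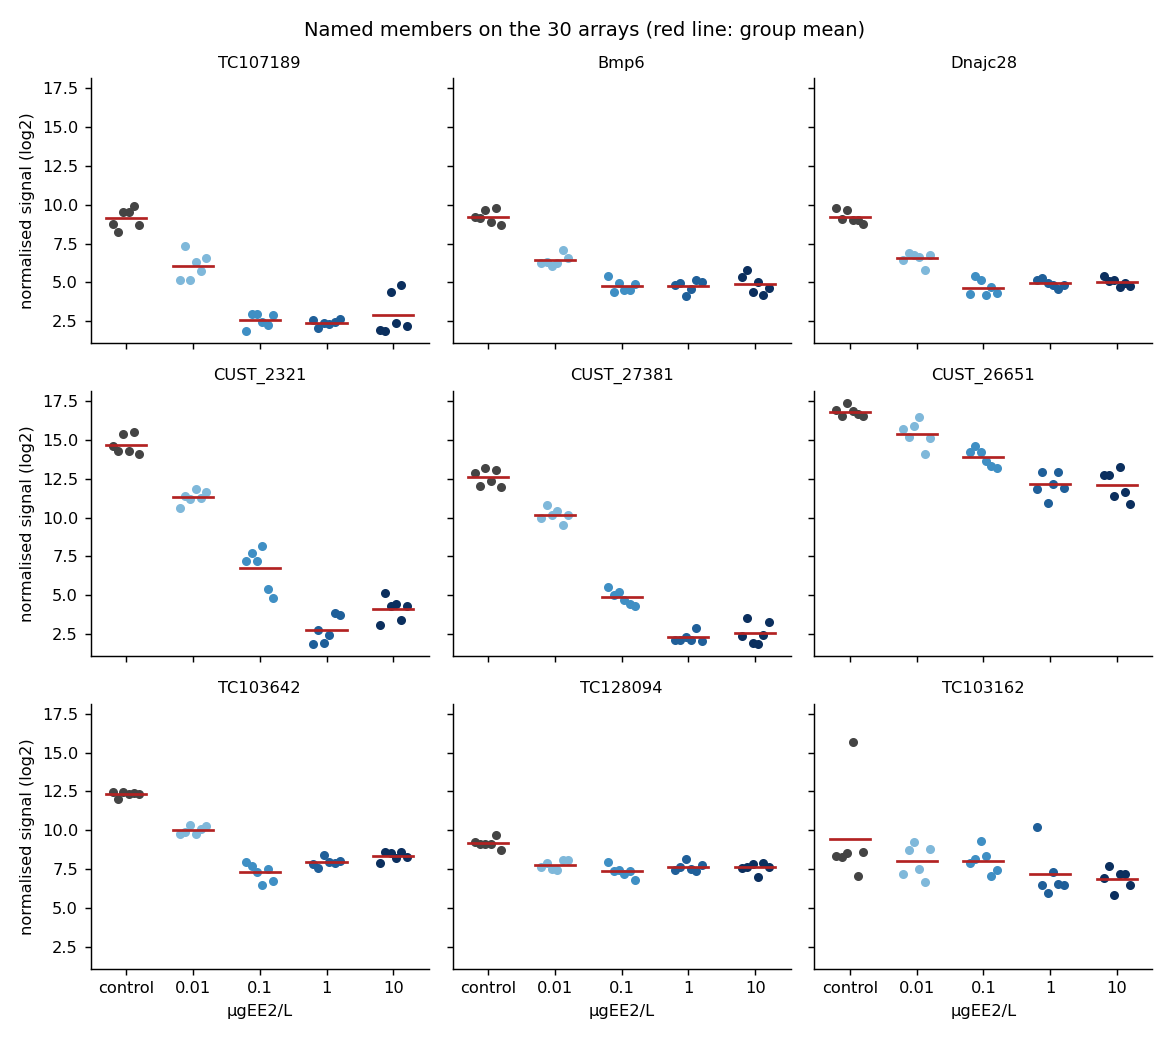
Normalised signal (log2) of 9 members on the 30 arrays by nominal EE2 concentration (points: arrays, red lines: group means). The top row (TC107189, Bmp6, Dnajc28) is level from 0.1 μgEE2/L on, the middle row (CUST_2321, CUST_27381, CUST_26651) is lower again at 1 than at 0.1 μgEE2/L, and in the bottom row TC103162 has a single control at 15.72 while TC103642 and TC128094 have controls close together.

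The member of highest rank, CUST_2321, had the largest difference from the control at 0.01 μgEE2/L. It lay between 14.12 and 15.53 in the control (median 14.44), 10.63 and 11.81 at 0.01 μgEE2/L (median 11.32), 4.80 and 8.14 at 0.1 μgEE2/L (median 7.22), 1.86 and 3.84 at 1 μgEE2/L (median 2.58) and 3.09 and 5.12 at 10 μgEE2/L (median 4.29). Neighbouring groups did not overlap except those at 1 and 10 μgEE2/L. The mean was 10.4-fold lower at 0.01 μgEE2/L and 247-fold lower at 0.1 μgEE2/L than in the control. At 1 μgEE2/L no array was well above background and it was at least 1967-fold lower. Among the other members of high rank, TC107189 had control values of 8.23 to 9.91 and values of 5.14 to 7.36 at 0.01 μgEE2/L. It was well above background on no array at 0.1 and 1 μgEE2/L, at least 42.9 and 42.7-fold lower than in the control.

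Further members of high rank, CUST_15391, TC103240, CUST_16072, CUST_2892 and CUST_25427, were 5.71 to 6.98-fold lower at 0.01 μgEE2/L than in the control. At 10 μgEE2/L CUST_15391 was 68.2-fold lower, TC103240 19.3-fold, CUST_16072 14.1-fold and CUST_2892 21.8-fold, and CUST_25427 was at least 28.2-fold lower. There CUST_15391 was well above background on 2 of 6 arrays and CUST_2892 on 3 of 6, so that their folds are less certain. For each member of high rank described so far, all 6 arrays of each exposed group lay below every control. These members were chosen for a large difference at 0.01 μgEE2/L, and of them CUST_2321 alone had a mean at 10 μgEE2/L over 0.5 (log2) below that at 0.1 μgEE2/L.

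The members with the largest further difference between 10 and 0.01 μgEE2/L were CUST_10038, CUST_24833, CUST_27381, TC94967 and again CUST_2321. CUST_10038 had medians of 14.17, 12.29, 6.96, 3.64 and 4.03 from the control to 10 μgEE2/L and was 1011-fold lower at 10 μgEE2/L, where 4 of 6 arrays were well above background for it, against 1 of 6 at 1 μgEE2/L. TC94967 had medians of 13.67, 11.96, 7.83, 4.78 and 4.33, and its groups did not overlap up to 1 μgEE2/L. It was 3.47, 51.7, 442 and 598-fold lower than in the control, and 4 and 5 of 6 arrays were well above background at 1 and 10 μgEE2/L. For CUST_27381 the medians were 12.59, 10.19, 4.86, 2.12 and 2.39. This probe was well above background on no array at 1 and 10 μgEE2/L, where it was at least 469 and 679-fold lower. CUST_24833 had controls between 9.61 and 13.09, which overlapped with its values of 9.83 to 10.98 at 0.01 μgEE2/L, and it was at least 392-fold lower at 10 μgEE2/L.

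At the other end, TC95165, TC128094, CUST_21138, TC117008 and CUST_3454 had the smallest further difference, and between 89.2 and 99.4% of their difference at 10 μgEE2/L was already there at 0.01 μgEE2/L. TC128094 lay between 8.70 and 9.69 in the control (median 9.14), and its medians from the lowest to the highest concentration were 7.74, 7.38, 7.57 and 7.65. All 6 arrays of each exposed group were below every control, and the exposed groups overlapped each other. The 5 members were 2.44 to 2.96-fold lower at 10 μgEE2/L than in the control. TC117008 was lowest at 0.1 μgEE2/L, with a median of 8.12 against 9.05 at 0.01, 8.82 at 1 and 9.05 at 10 μgEE2/L and 10.20 in the control.

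Members are also given for the height of their signal in the control. The 5 with the highest control means included CUST_2321 and CUST_10038 above. CUST_26651 lay between 16.56 and 17.37 in the control (median 16.76), and its medians at the 4 concentrations were 15.45, 13.93, 12.03 and 12.20, so that it was 26.1-fold lower at 10 μgEE2/L. CUST_27874 and TC122809 were 24.6 and 71.9-fold lower at 10 μgEE2/L. Members with the lowest control means, close to the minimum of 8, were TC112088, TC112275, CUST_19607, CUST_22253 and again CUST_25427. Of these, CUST_22253 was 6.03-fold lower at 10 μgEE2/L with all 6 arrays below every control, CUST_19607 6.68-fold and TC112275 4.61-fold. TC112088 had a control at 4.91, on the array with a dim middle, and no array at 0.01, 1 or 10 μgEE2/L lay below it. Signals of different probes depend on the probe as well as on the transcript and were not set against each other. Over the members, the control mean and the difference by which they were ranked had a correlation of 0.06 across 197 probes, which are not independent. Both were cut off by the choice and the difference holds the control mean, so that nothing is read from it.

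**Figure D3:**
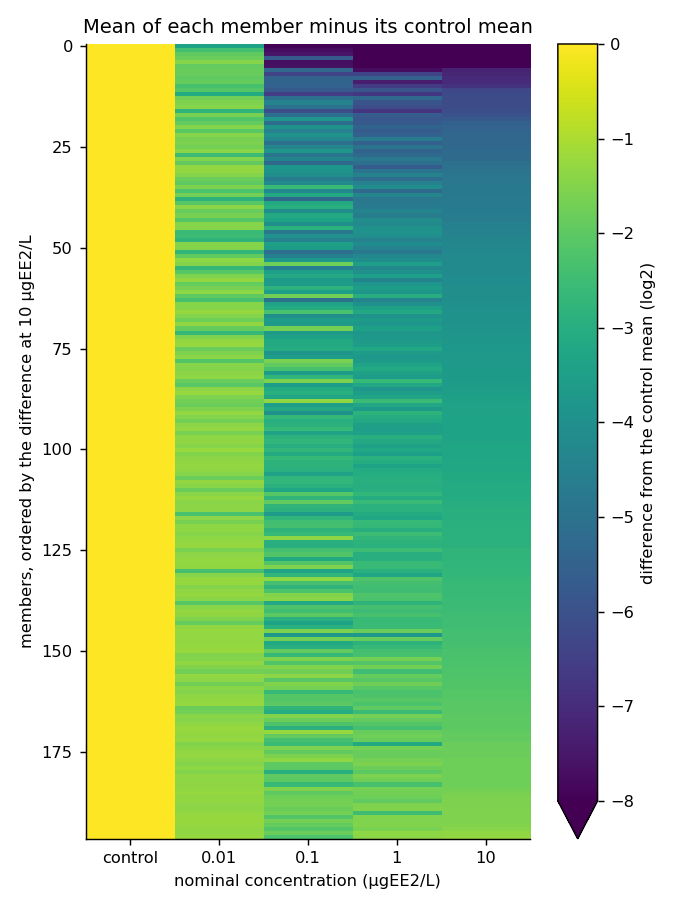
Mean of each of the 197 members at each nominal concentration minus its control mean (log2, colour scale), with members ordered from the largest to the smallest difference at 10 μgEE2/L (vertical axis: place in this order). Differences at 0.01 μgEE2/L lie between -3.37 and -1.24, while the columns of 1 and 10 μgEE2/L resemble each other for most members.

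The step between 0.1 and 0.01 μgEE2/L had a wider range over the members than the one from the control. The choice cut off the smaller differences from the control, so that nothing is read from the unlike ranges. Its median was -1.42 on the log2 scale, with a range of -6.26 to 0.54 and 0.00 over all probes, and the mean was lower at 0.1 than at 0.01 μgEE2/L for 188 members. Between 0.01 μgEE2/L and the control, the median was -1.44, the range -3.37 to -1.24, and -0.02 over all probes. Limma called 145 members lower at 0.1 than at 0.01 μgEE2/L (4.45% of all probes), and for 110 members every array at 0.1 was below every array at 0.01 μgEE2/L (2.89%). Against 0.01 μgEE2/L, 147 members were called lower at 1 μgEE2/L (11.8%) and 157 at 10 μgEE2/L (13.9%). These contrasts are part of the criteria also, so that the counts are a description.

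Between 1 and 0.1 μgEE2/L the median difference was -0.24, with a range of -4.00 to 1.04, against -0.03 over all probes. The median was -0.43 with scaling to the 75th percentile and -0.15 without replicate 1 at 0.1 μgEE2/L. Limma called 26 members lower at 1 than at 0.1 μgEE2/L (4.66% of all probes) and 2 higher (1.6%), and for 24 members every array at 1 was below every array at 0.1 μgEE2/L (3.22%). The mean at 1 μgEE2/L entered the criteria and the mean at 0.1 μgEE2/L the rank, so that these counts are a description. Of the 26 members, 23 were also called lower at 0.1 than at 0.01 μgEE2/L. Their medians of the group means were 12.58, 10.94, 6.74, 5.22 and 5.54 from the control to 10 μgEE2/L, so that they were lower in 3 successive steps. The other 3, CUST_8760, TC100273 and CUST_16124, were not called between 0.1 and 0.01 μgEE2/L. The 2 members called higher at 1 than at 0.1 μgEE2/L were TC103642 and TC117008. TC103642 had medians of 12.38, 9.99, 7.41, 7.93 and 8.38 from the control to 10 μgEE2/L and was 16.1-fold lower at 10 μgEE2/L than in the control.

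The largest set, 120 members, was called lower at 0.1 than at 0.01 μgEE2/L and not called between 1 and 0.1 μgEE2/L. The medians of its group means were 9.88, 8.32, 6.56, 6.17 and 6.30. For the remaining 49 members neither step was called, and the medians were 9.43, 7.75, 7.36, 7.12 and 6.85. The share of all probes with each of these patterns is not given, and the choice used the means compared. The sets thus only describe the members. A median of 47.2% of the difference between 10 μgEE2/L and the control was reached at 0.01 μgEE2/L (quartiles 37.7 and 63.4%) and 88.5% at 0.1 μgEE2/L (quartiles 77.7 and 104%). The lowest mean was at 0.1 μgEE2/L for 53 members, at 1 for 44 and at 10 μgEE2/L for 100. Each mean was below the one before for 88 members. Against 0.1 μgEE2/L, 58 members were called lower at 10 μgEE2/L (13.1% of all probes) and 9 higher (10.9%), again as a description. Those called higher were TC103240, TC103642, TC132289, CUST_28646, TC112088, CUST_9630, CUST_9925, TC117008 and CUST_24816.

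**Figure D4:**
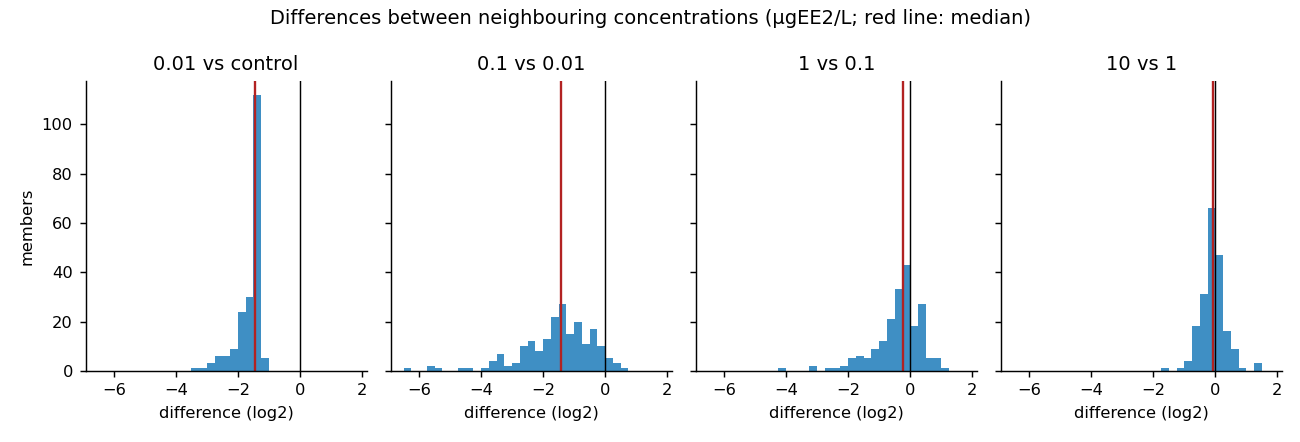
Number of members (vertical axes) by difference of group means (log2, horizontal axes) for the 4 steps between neighbouring concentrations, the higher concentration minus the lower. Red lines are medians, at -1.44, -1.42, -0.24 and -0.07. The first step has a steep edge at -1.24, set by the choice of the members, and the last is centred close to 0.

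The difference between 10 and 1 μgEE2/L was not used by the choice. In limma, 0 members had an adjusted p below 0.05, and 2 of all probes did (0.00332%). At an unadjusted p below 0.05 there were 18 members, or 9.14%, and 4.8% of all probes. The median difference was -0.07 (quartiles -0.29 and 0.12), and 0.02 over all probes. The mean was lower at 10 than at 1 μgEE2/L for 121 members and higher for 76, and 47.1% of all probes were lower. The difference was within 0.5 of 0 for 160 members. Its 95% interval lay within 1 of 0 for 138 members, while for the other 59 it also held a 2-fold change.

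For the named genes, the difference between 10 and 1 μgEE2/L was 0.12 for Bmp6 (95% interval -0.41 to 0.64) and 0.07 for Dnajc28 (-0.37 to 0.51). The 3 members of lowest p did not pass the threshold with equal weights for the arrays. TC128546 lay between 2.60 and 4.78 at 10 μgEE2/L (median 3.24), against 2.82 to 6.38 at 1 μgEE2/L (median 5.08), and the groups overlapped. Its difference was -1.55 (SE 0.48, adjusted p = 0.59 in limma). It was called lower when the arrays were weighted, and it was well above background on 1 of 6 arrays at 10 μgEE2/L, against 4 of 6 at 1 μgEE2/L. CUST_24160 lay between 5.71 and 6.70 at 10 μgEE2/L, against 6.80 to 7.12 at 1 μgEE2/L, and was the single member whose arrays did not overlap (0.317% of all probes). It differed by -0.65 (SE 0.21, adjusted p = 0.63). CUST_2321 was higher at 10 μgEE2/L, by 1.37 (SE 0.47, adjusted p = 0.70), but no array at 1 μgEE2/L was well above background for it.

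The tanks and slides were not used by the choice. In an F test over the tanks within groups, 0 members and 6 of all probes (0.00997%) had an adjusted p below 0.05 in limma, and an unadjusted p below 0.05 was found for 17 members (8.63%) and 6.94% of all probes. Over the 4 slides, 0 members and 55 of all probes (0.0914%) were called, with 4 members (2.03%) and 7.31% of all probes at an unadjusted p below 0.05. With 2 pools per tank only large differences between tanks could have passed.

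The median SD of a member over the 6 arrays of a group was 0.52 in the control, 0.33 at 0.01 μgEE2/L, 0.50 at 0.1, 0.36 at 1 and 0.43 at 10 μgEE2/L, against 0.45, 0.34, 0.45, 0.30 and 0.35 over all probes. Replicates 2 and 6 of the control were the lowest 2 controls for 119 members, or 60.4%, and for 23.3% of all probes. The median gap between the other 4 controls and these was 0.69 on the log2 scale for the members and 0.14 for all probes. The medians of the members were 9.56 on replicate 2 and 9.14 on replicate 6, against 10.01 to 10.22 on the other 4 controls.

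FOXL2 (probe TC126540), which was no member, was highest on the same controls, at 9.03 and 8.97 on replicates 2 and 6 against 6.91 to 7.77 on the other 4. At 0.01 μgEE2/L it lay between 9.49 and 10.33 and at 0.1 μgEE2/L between 9.47 and 10.05, whereas at 1 and 10 μgEE2/L it lay between 8.39 and 8.86 and between 8.47 and 8.92. Replicate 2 of the control was above every array at 0.01 μgEE2/L for 186 members and replicate 6 for 172, against 189 to 193 for the other 4 controls. All 6 controls enter the control mean used by the choice, so that these counts are largely set by it and are a description. With replicates 2 and 6 of the control left out, the median difference between 0.01 μgEE2/L and the control was -1.70 in place of -1.44, and 186 members were called lower. The part of ovarian cells in these 2 pools was not tested.

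**Figure D5:**
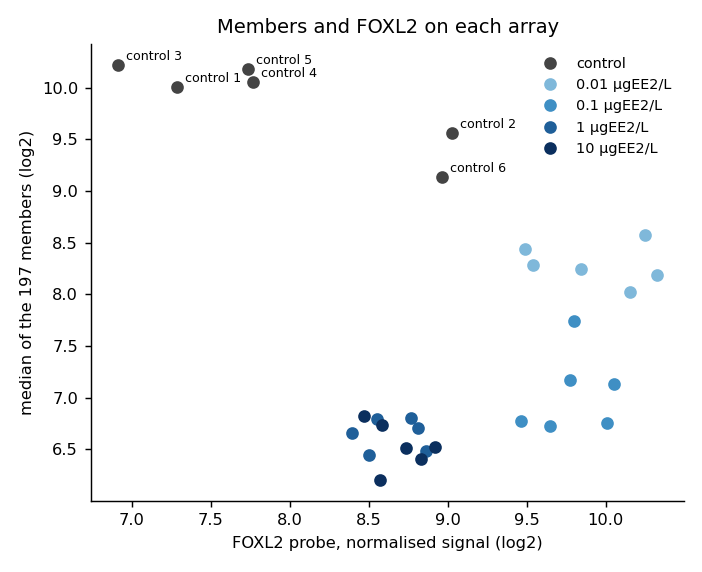
Median normalised signal of the 197 members (log2, vertical axis) against that of the FOXL2 probe (log2, horizontal axis) on each of the 30 arrays, coloured by nominal concentration. Controls 2 and 6 have the highest FOXL2 signal (9.03 and 8.97) and the lowest member medians (9.56 and 9.14) of the 6 controls, and the arrays at 1 and 10 μgEE2/L lie together at the bottom.

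Members deviated together from their group means. Over the 30 arrays, each member's deviations were correlated with the mean deviation of the other members. The median correlation was 0.54, and it was above 0 for 190 members and above 0.5 for 114. For other probes, set against the mean of all members, it was 0.06 in the median and above 0.5 for 12.2%. In the groups taken alone, of 6 arrays each, the median was 0.78 in the control, 0.55 at 0.01 μgEE2/L, 0.70 at 0.1, 0.49 at 1 and 0.40 at 10 μgEE2/L. For other probes it was 0.19, 0.03, 0.23, -0.09 and -0.07 in the same order. The correlation was above 0.5 for 158, 108, 135, 98 and 82 members, and for 31.4, 19.3, 33.7, 23.0 and 26.7% of other probes. It was below -0.5 for 20.8, 13.9, 18.0, 24.9 and 29.7% of other probes. The members share the arrays, their brightness and their normalisation. Of the 19306 pairs of members, 15 had a correlation over 0.9 and the median was 0.27. The highest was that of TC109266 with TC104932 (0.98), followed by TC104932 with TC100996 (0.97), CUST_28631 with TC104869 (0.97) and CUST_8679 with CUST_27408 (0.96). Whether such pairs are probes of the same transcript could not be read from the files used here.

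TC103162 and TC103642 had the widest and the narrowest spread among the controls. TC103642 lay between 12.03 and 12.49 in the control. TC103162 was at 15.72 on replicate 4, the array with a dim middle, and between 7.03 and 8.60 on the other 5 controls, and its values at 0.01 μgEE2/L were between 6.66 and 9.25. Without that array, its control mean was 8.17 and lay 0.15 above the mean at 0.01 μgEE2/L, so that it no longer met the criteria. In all, 7 members did not meet them without replicate 4 of the control, namely TC103162, CUST_19607, TC112275, CUST_21138, TC116941, CUST_5552 and CUST_25427. TC103162, CUST_5552, CUST_24833 and TC112412 were among the 11 members that limma did not call lower at 0.01 μgEE2/L than in the control. TC112412, of rank 16, had a highest control of 17.42 against a control median of 10.07. The 2 not called at 10 μgEE2/L were TC95469 and CUST_20558.

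The last members by rank were CUST_9671, CUST_24816 and CUST_27220, with a control mean 1.24 above the largest exposed mean. The first probes outside, TC107531, CUST_16403 and TC112839, also had a difference of 1.24, so that the limit of the set falls in a continuous range. CUST_27220 was 2.36-fold lower at 0.01 and 11.6-fold lower at 10 μgEE2/L than in the control, CUST_24816 2.36 and 4.01-fold, and CUST_9671 2.37 and 2.90-fold. Of the 197 members, 105 had a TC design name, or 53.3%, as did 52.0% of the array.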

How the data were processed

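Gene expression was measured in 5 groups of 6 arrays, and the authors read the scanned slides with Agilent's Feature Extraction software. The deposited scanner files hold the processed signal, an intensity with the background subtracted and no normalisation between arrays, and flags for outliers and for spots well above background. The log2 values in the authors' table were made from that signal with quantile normalisation over the 30 arrays and were deposited beside the scanner files. R 2.15.3 is named in the submitters' processing notes. Columns of comparisons made by the authors were not used.

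The criteria that define the members were applied to the deposited log2 values. All other values came from the processed signal. It was averaged over the spots of each probe, without control spots and without outlier spots where another spot remained, and then log2-transformed and quantile-normalised. A model with a mean for each concentration was fitted over 60195 probes and 30 arrays with limma 3.58.1 in R 4.3.3, without covariates. The contrasts were moderated with eBayes (prior degrees of freedom 2.89), the Benjamini-Hochberg adjustment ran over all probes, and the threshold was 0.05. Python 3.11.15 with numpy 2.4.6, pandas 2.3.3, scipy 1.17.1 and matplotlib 3.10.9 was used for the rest. The fit and the choice of members were tested on simulated data. The number of arrays limits the precision, and the 95% intervals come from limma's standard errors.

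The members and all lists were chosen with earlier results of these data known. Members are given by name where a gene name was found, for the 10 highest and 3 last ranks, the 5 largest and 5 smallest further differences, the 5 highest and 5 lowest control means, the 3 of lowest p between 10 and 1 μgEE2/L and the widest and narrowest spread among controls, and others in small counts were named after their values had been seen. A gene name was taken from the study's tables where a single probe matched its 4 values in a fit to the deposited log2 values, which is not evidence for the values. The values of 1 other member enter the counts and are not reported here by themselves. No name in the array files matched the reference table. Equal replicate numbers in different groups did not mark shared animals, and the correlation of their deviations ranged from -0.455 to 0.427 over 60 pairs (median 0.0189), so that the fit without the replicate block was kept. The alternatives were other scalings, background correction, array weights, Scheffe's criterion, blocks for tank, slide and replicate, and arrays left out.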

Additional observations from a re-analysis of the deposited data

Results flagged for a closer look

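In 11 cases a single array of a group lay far from the other 5 for a member given by name. Chance flags about 1 in 20 groups, and the 11 cases are not read as more than that. Over all members, 13 were set apart in this way in the control, 6 at 0.01 μgEE2/L, 18 at 0.1, 14 at 1 and 17 at 10 μgEE2/L, or 6.60, 3.05, 9.14, 7.11 and 8.63%, against 14.3, 7.98, 13.1, 8.26 and 10.3% of all probes. In the control, replicate 4, one of the arrays with a dim middle, was high for TC103162 (15.72) and CUST_19607 (9.91) and low for TC112088 (4.91). Replicate 2 of the control was low for TC103642 (12.03). At 0.1 μgEE2/L, replicate 1, the other array with a dim middle, was high for CUST_39 (7.37). Replicate 5 at 0.01 μgEE2/L was low for CUST_16072 (6.06). At 1 μgEE2/L, replicate 3 was high for CUST_3454 (8.90), replicate 5 for CUST_27381 (2.88), which was not above background there, and replicate 1 for TC103162 (10.22), while replicate 3 was low for CUST_39 (2.49). At 10 μgEE2/L, replicate 4 was low for TC128094 (7.01). The part of the dim middle in the 3 values of control replicate 4 and in that of replicate 1 at 0.1 μgEE2/L was not tested.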

How the results depend on the processing

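Between 1 and 0.1 μgEE2/L 28 members were called, 43 with scaling to the 75th percentile, 48 with array weights and 10 under Scheffe's criterion. Between 10 and 0.1 μgEE2/L Scheffe's criterion left 20 of 67, and between 0.01 μgEE2/L and the control 111 of 186. Array weights called 13 members between 10 and 1 μgEE2/L in place of 0. The share of all probes called with array weights is not given here, so that nothing particular to the members is read from the 13. For the tanks 1 member was called without replicates 2 and 6 of the control. Background correction by normexp, with an offset of 50 added to the signal, gave a median difference of -0.91 between 0.1 and 0.01 μgEE2/L in place of -1.42. The part of the offset was not tested. With 1 array left out in turn, 175 to 188 members were called between 0.01 μgEE2/L and the control, 133 to 154 between 0.1 and 0.01, 23 to 32 between 1 and 0.1, 47 to 73 between 10 and 0.1, and 0 to 5 for the tanks (5 without replicate 3 of the control). Between 10 and 1 μgEE2/L and for the slides there were 0 in each case. The criteria found 165 to 197 of the members again, the fewest without replicate 4 of the control, 162 without replicates 2 and 6 of the control, 163 without the arrays with a dim middle and 159 with normexp.

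With the replicate number as a block, 187 members were called between 0.01 μgEE2/L and the control, 26 between 1 and 0.1 and 0 between 10 and 1 μgEE2/L. The numbers do not pair the samples. With the pools of each tank averaged, 172 members were called between 0.01 μgEE2/L and the control in place of 186. Between 0.1 and 0.01 μgEE2/L there were 127 in place of 145, and between 1 and 0.1 μgEE2/L 22 in place of 28. Between 10 and 1 μgEE2/L there were again 0. Of 5502 values of named members under the alternatives, 5448 kept their direction and side of the threshold, 41 lost the call, 13 gained it and 0 changed direction.

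Scaling to the 75th percentile moved the share of lower probes among all calls to 65.5% from 51.7% for 1 μgEE2/L against the control, to 63.3% from 50.9% for 10 against the control, to 69.6% from 55.2% for 1 against 0.01 and to 61.6% from 51.0% for 10 against 0.01 μgEE2/L. Dim probes limit what can be said of the highest concentrations, where 153 and 156 members were well above background on every array at 1 and 10 μgEE2/L.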

Other observations

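A set of 7 members was picked because the array also names them by sequence database accessions that begin with AF, AB, U, M or S. No gene name was given to them here, since these accessions were not matched in the reference table. CUST_39 had medians of 13.81, 11.96, 5.90, 4.62 and 4.59 (log2) from the control to 10 μgEE2/L and was 533-fold lower at 10 μgEE2/L than in the control. It was well above background on 4 of 6 arrays at 1 μgEE2/L and 5 of 6 at 10 μgEE2/L. CUST_9 had medians of 12.76, 11.07, 7.55, 5.11 and 5.62 and was 149-fold lower, and CUST_28639 had medians of 12.50, 11.13, 8.68, 6.95 and 7.27 and was 41.4-fold lower. For these 3 members the groups of the control, 0.01, 0.1 and 1 μgEE2/L did not overlap. The other 4 were less far from the control at 10 μgEE2/L, with 4.11-fold for CUST_28646, 5.50-fold for CUST_28631, 8.35-fold for CUST_3 and 4.99-fold for CUST_13. CUST_28646 was lowest at 0.1 μgEE2/L, with medians of 11.86, 9.93, 8.68, 9.08 and 9.51. Between 10 and 1 μgEE2/L, none of the 7 was called in limma.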
